A study of Mus musculus with 6 samples.

Results

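The genes described here are 3 subunits of the meiotic form of cohesin, Rec8, Stag3 and Smc1b, together with the germ cell helicase gene Ddx4, which encodes no cohesin subunit. They are 4 of the 12393 genes measured, and each had 1 probe set annotated to it alone, so 4 of 20380 probe sets. They were chosen by name with the values of all 6 arrays already known, and no contrast or threshold was stated for the choice. Their levels and differences are therefore a description with no p-value, and nothing is read from whether the fit across all genes called them.

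RNA of mouse bone marrow progenitors was measured on 6 Affymetrix arrays, 2 in each of 3 groups: Rad21 shRNA1, Rad21 shRNA2 and empty vector. All groups, the empty vector included, started as bone marrow cells of 6 to 8 weeks old mice, strain C57/BL6, that had been cleared of lineage-positive cells, exposed for 24 h to lentivirus and selected with 1 µg/mL puromycin. Live cells were sorted and grown as 10000 cells per mL in methylcellulose with cytokines, and RNA was taken on day 7. The empty vector carried no shRNA, so the effect of carrying any hairpin at all was not separated from that of the Rad21 hairpins. Whether replicates came from separate animals or cultures is not stated, so standard errors and p-values cover no more than array-to-array spread, possibly technical. In cultures of mixed cells, fewer cells of a type and less RNA per cell cannot be told apart.

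Cohesin is a ring that holds sister chromatids together and shapes chromatin loops. In dividing body cells the ring consists of Smc1a, Smc3, the kleisin Rad21, which closes the ring, and a STAG protein, either Stag1 or Stag2. In meiosis germ cells build rings with the kleisin Rec8 in place of Rad21, with Smc1b in place of Smc1a and with Stag3 in place of Stag1 or Stag2, while Smc3 is shared. Ddx4, also called Vasa, is a DEAD-box RNA helicase of germ cells that acts in the making of piRNAs. In body cells such genes are held silent by DNA methylation of their promoters and by a variant Polycomb complex with E2F6, PCGF6 and MGA, whose DNA-binding parts recognise E2F-type sites and E-boxes.

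The promoters are shown to set the 2 genes that were lower on every shRNA array beside the 2 that were not, with the letters of those 2 kinds of site. The sequences run from 180 bases before to 10 bases after the start that RefSeq's promoter table gives (build GRCm38.p6), 5′ to 3′ on the strand of the gene. Capitals mark TCCCGC, the core of an E2F-type site, or its reverse complement GCGGGA, and the E-box CACGTG. They lie at chr14:55617986-55618175 (plus strand) for Rec8, chr5:138280329-138280518 (plus) for Stag3, chr15:85131948-85132137 (minus) for Smc1b and chr13:112652301-112652490 (minus) for Ddx4. The Stag3 sequence lies inside the annotated gene, which begins at 138272514, so it belongs to a start further downstream. The Ddx4 sequence also lies inside its gene, which begins at 112652633 on the minus strand, but near that beginning. The Rec8 and Smc1b sequences span the annotated beginning of their genes.
Rec8: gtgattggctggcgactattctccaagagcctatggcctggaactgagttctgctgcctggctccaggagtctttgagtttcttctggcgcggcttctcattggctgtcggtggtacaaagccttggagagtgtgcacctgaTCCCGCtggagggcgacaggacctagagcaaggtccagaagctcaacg
Stag3: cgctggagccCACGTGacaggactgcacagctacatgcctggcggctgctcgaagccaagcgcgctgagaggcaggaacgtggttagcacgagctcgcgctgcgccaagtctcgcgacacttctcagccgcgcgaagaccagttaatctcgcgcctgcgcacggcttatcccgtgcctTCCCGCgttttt
Smc1b: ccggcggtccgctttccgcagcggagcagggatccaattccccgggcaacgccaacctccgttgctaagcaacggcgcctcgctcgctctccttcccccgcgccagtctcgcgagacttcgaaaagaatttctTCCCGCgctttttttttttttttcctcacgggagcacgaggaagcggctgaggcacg
Ddx4: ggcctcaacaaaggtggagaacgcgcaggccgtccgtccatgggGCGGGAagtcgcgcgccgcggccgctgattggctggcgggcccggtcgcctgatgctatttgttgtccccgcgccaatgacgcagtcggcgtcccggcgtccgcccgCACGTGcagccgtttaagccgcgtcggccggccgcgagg

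The E2F-type core was found, on either strand, in all 4 of these promoters within the 300-base window from 250 bases before to 50 after the start. It begins 38 bases before the start in Rec8, 47 before in Smc1b, 2 before in Stag3 and, as the reverse complement, 136 before in Ddx4. The same letters stand in 20.0% of all 32851 promoters of that length in the table and in 30.2% of the 12566 promoters of genes measured here. The E-box stands in Stag3, beginning 170 bases before the start, and in Ddx4, 29 before. It stands in 7.15% of all promoters, and no E-box overlaps an E2F-type core in the 4 sequences. The windows held 18 CpG dinucleotides in Rec8, 30 in Stag3, 29 in Smc1b and 38 in Ddx4, against a median of 7 over all promoters and 17 over those of genes measured. Thus the pair that was lower with the shRNAs and the pair that was not both hold the E2F-type core. A match of letters is a description of the sequence and not evidence of binding in these cells.

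The arrays had median intensities of 100.2 to 104.9, on the linear scale of the deposited values, and all levels and differences below are on the log2 scale. Empty-vector replicate 1 stood apart in its control probe sets. Those of Gapdh differed by 2.42 between the 3′ and 5′ ends of the transcript, against -0.08 to 0.02 on the other 5 arrays. Its poly-A controls averaged 10.47, against 7.11 to 8.58, and its hybridization controls 10.83, against 9.86 to 10.33. Whether RNA quality or another step lay behind this was not tested. The root mean square distance of arrays to their group mean, over all genes, was 0.151 for shRNA1 and 0.141 for shRNA2, against 0.321 for empty vector, while the fit assumes 1 spread for all groups. Results that rest on that array are given with and without it. The blood cell markers Ptprc, Spi1, Itgam, Csf1r and Mpo averaged 10.74 to 11.11 on the shRNA arrays and 9.48 and 9.83 on the empty-vector arrays. Mpo carried most of that gap (11.89, 10.32, 12.86 and 12.77 with the shRNAs, against 7.13 and 6.11), and the median difference of the 5 was 0.24. No detection call was available here to tell a dim gene from array background.

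Ddx4 (Entrez gene 13206; chromosome 13, 112598333 to 112652633 on GRCm38.p6) differed most of the 4. Its probe set read 3.44 and 3.64 on the shRNA1 arrays and 3.48 and 3.19 on the shRNA2 arrays, against 5.51 and 5.80 on the empty-vector arrays. All 4 shRNA arrays lay at least 1.86 below the lower empty-vector array, so the groups did not overlap, while the shRNA arrays lay within 0.45 of each other. The group means were 3.54 ± 0.14 for shRNA1 and 3.33 ± 0.20 for shRNA2, against 5.65 ± 0.21 for empty vector (SD, n = 2 each). In linear intensity these are 11.6 and 10.1, against 50.3.

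The fitted difference of both shRNAs minus empty vector was -2.21 ± 0.17 (SE, n = 4 and 2), or an array signal at 21.5% of that with empty vector (4.64-fold lower). This is a ratio of signals, since the shRNA readings were not shown to lie above array background. For the single hairpins it was -2.11 ± 0.19 with shRNA1 and -2.32 ± 0.19 with shRNA2 (n = 2 and 2). The order of the levels was shRNA2, shRNA1, empty vector from low to high, and the lower 2 overlapped: shRNA1 minus shRNA2 was 0.21 ± 0.19. For both shRNAs together, 57 of the 12393 genes had a more negative difference than Ddx4, 223 than Rec8, 2606 than Smc1b and 5055 than Stag3. The 4 genes were chosen with these values known, so the ranks are a description only. With any single array left out, the Ddx4 difference lay between -2.36 and -2.07. It was -2.36 without empty-vector replicate 1, the array with outlying control probe sets.

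Rec8 (Entrez gene 56739; chromosome 14, 55618002 to 55625395), the meiotic kleisin, was also lower, but its controls were far apart. It read 5.40 and 5.92 with shRNA1 and 5.44 and 6.11 with shRNA2, against 7.59 and 6.49 on the empty-vector arrays. No shRNA array reached either empty-vector array, yet the gap of 0.39 between the groups was smaller than the 1.10 between the 2 empty-vector arrays. Means were 5.66 ± 0.37 for shRNA1 and 5.77 ± 0.47 for shRNA2, against 7.04 ± 0.78 for empty vector (SD, n = 2 each).

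For both shRNAs the Rec8 difference was -1.33 ± 0.37 (SE), or 39.9% of the empty-vector signal. It was -1.38 ± 0.43 with shRNA1 and -1.27 ± 0.43 with shRNA2, and the hairpins differed by -0.11 ± 0.43, less than their spread. Its size depended on a single control array. Without empty-vector replicate 1 the difference was -0.78. Without replicate 2, with only the array with outlying control probe sets as control, it was -1.88. Erythroid markers moved with that array too: the mean of the 8 that were measured, of 10 listed, was 6.35 to 6.95 with the shRNAs, against 9.12 for the first and 7.18 for the second empty-vector array. All 8 had negative differences, none passed the limma test defined below while 5 of 8 had an unadjusted p under 0.05, and this scale has no reading of 0. The part of these markers, or of RNA quality, in the Rec8 level was not tested.

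**Figure D1:**
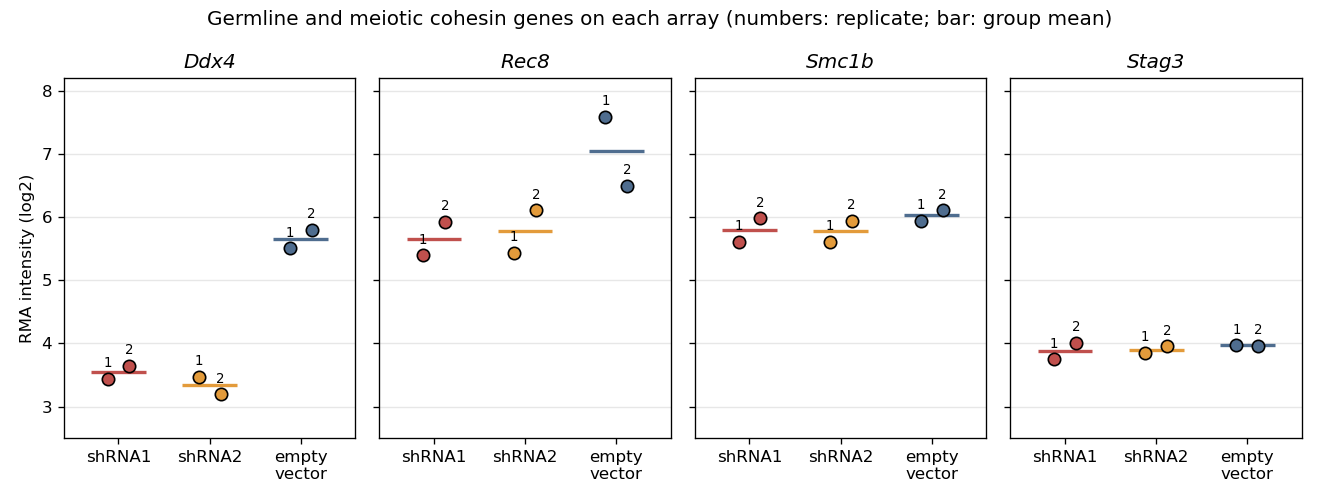
RMA intensity (log2, vertical axis) of the 1 probe set of each gene on every array, with shRNA1, shRNA2 and empty vector along the horizontal axis, points numbered by replicate and bars at the group means (n = 2). The 4 shRNA arrays sit at 3.19 to 3.64 for Ddx4, below 5.51 and 5.80 with empty vector, while for Stag3 and Smc1b the groups overlap.

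Smc1b (Entrez gene 140557; chromosome 15, 85064689 to 85131957), the meiotic SMC1 protein, read 5.61 and 5.98 with shRNA1 and 5.61 and 5.94 with shRNA2, against 5.95 and 6.11 with empty vector. The groups overlapped, since shRNA1 replicate 2 lay above the lower empty-vector array. The means were 5.80 ± 0.27 and 5.78 ± 0.24 for shRNA1 and shRNA2, against 6.03 ± 0.12 for empty vector (SD, n = 2 each). The difference of -0.24 ± 0.18 was close to the spread of 0.22 within groups, and the hairpins differed from each other by 0.02 ± 0.21. Any order of the 3 groups is within their spread.

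Stag3 (Entrez gene 50878; chromosome 5, 138272514 to 138312397), the meiotic STAG subunit, was the flattest of the 4. It read 3.75 and 4.01 with shRNA1 and 3.85 and 3.96 with shRNA2, against 3.97 and 3.96 with empty vector. All 6 readings lay within 0.26 of each other, and the groups overlapped. The means were 3.88 ± 0.19 and 3.90 ± 0.07, against 3.97 ± 0.01 (SD, n = 2 each), and the difference for both shRNAs was -0.08 ± 0.14. Replicate 1 read lower than replicate 2 in both shRNA groups for Rec8, Smc1b and Stag3, and for Ddx4 in the shRNA1 group only.

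On the shRNA arrays, 2.82% to 6.44% of genes had a dimmer probe set than Ddx4, against 29.1% and 34.1% on the empty-vector arrays. Stag3 had 8.64% to 10.8% of genes below it on all arrays, Smc1b 32.7% to 37.8%, and Rec8 30.1% to 37.7% with the shRNAs, against 56.2% and 42.1% with empty vector. As a gauge of dim readings, 24 measured genes of eye, pancreas, pituitary, kidney, heart, skin, ear and brain (27 listed) read between 2.52 and 7.90 with a median of 5.19. Every reading of the 4 genes fell inside that range. The range is wide enough to hold even Rec8 at 7.59, so it cannot tell background from signal. None of the 24 were called by limma and 1 had an unadjusted p under 0.05: Tecta, of the inner ear, differed by -0.41 ± 0.15 (adjusted p = 0.257), and Aqp2, a kidney water channel, followed at -0.24 ± 0.12 (adjusted p = 0.407). Probe sets bind with different strength, so these shares rank signals and not RNA levels. Absent and low RNA therefore cannot be told apart for any of the 4 genes, on the empty-vector arrays or on the shRNA arrays.

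For the fit across genes, a gene counted as called when its limma p-value, adjusted by Benjamini-Hochberg over all 12393 genes, was under 0.05. For both shRNAs minus empty vector, 2.13% of all genes were called, 0.734% higher and 1.4% lower. Of the 4 genes described, 1, Ddx4, was called. It was also the only one of the 4 called for shRNA1, where 0.234% of genes were called, and for shRNA2, where 2.83% were. None of the 4, and 0.0% of all genes, were called for shRNA1 minus shRNA2. There 606 genes, or 4.89%, had an unadjusted limma p under 0.05, near the share this cut-off gives without any difference. The fit takes 1 spread for all groups, and the empty-vector arrays lay further apart (0.321) than the arrays of either hairpin (0.151 and 0.141). The absence of calls therefore does not show that the hairpins act alike. For shRNA1 minus shRNA2, 11 measured mitosis genes had negative differences and 0 positive, with a median of -0.55. Groups without overlap were found for 2 of the 4, both lower, against 13.6% of all genes lower and 11.5% higher. Because the choice of the 4 was made with these values known, nothing is read from their counts, and the 2 hairpins' comparisons share the empty-vector arrays.

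The meiotic subunits can be set beside the body-cell subunits they replace. Rad21, the target of the hairpins, read 9.63 and 9.14 with shRNA1 and 9.50 and 9.11 with shRNA2, against 11.14 and 10.49 with empty vector on its brightest probe set. Its difference was -1.47 ± 0.26 (limma adjusted p = 0.0558), over the threshold (0.00721 to 0.203 over the alternatives), and its 3 probe sets ranged from -1.78 to -0.43. Without empty-vector replicate 1 the Rad21 difference was -1.15, and without replicate 2 it was -1.80. Rec8 at -1.33 ± 0.37 thus lay on the same side as Rad21. On the Rec8 probe set and the brightest Rad21 probe set every shRNA array lay below both empty-vector arrays. On the dimmest Rad21 probe set (6.86, 6.19, 6.68 and 6.10 with the shRNAs, against 6.64 and 7.13) the groups overlapped.

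Stag1 rose, by 1.26 ± 0.20 (limma adjusted p = 0.0454). It read 9.47 and 8.98 with shRNA1 and 9.87 and 9.65 with shRNA2, against 8.06 and 8.41 with empty vector, and its 4 probe sets had differences of 0.96 to 1.90. This call was lost in 8 of the alternatives, among them the fit without empty-vector replicate 1 (adjusted p = 0.0583) and each fit without 1 shRNA array (0.0862 to 0.204), over a range of 0.00995 to 0.204. Stag2 differed by 0.71 ± 0.24 (adjusted p = 0.232), or 0.29 without empty-vector replicate 1 and 1.13 without replicate 2 (adjusted p = 0.00492, range 0.00492 to 0.586). The other Stag2 probe set differed by 0.28 ± 0.16, and its groups overlapped (8.65, 8.28, 8.60 and 8.54 with the shRNAs, against 8.15 and 8.32). Stag3 stood at -0.08 ± 0.14 beside positive differences of both of its counterparts, of which that of Stag2 was not called with all arrays. Smc1a, the counterpart of Smc1b, differed by 0.12 ± 0.16 (limma adjusted p = 0.769), and Smc3, shared by both kinds of ring, by 0.33 ± 0.20 (limma adjusted p = 0.479). Without empty-vector replicate 1 these were 0.27 for Smc1a and 0.61 for Smc3, and without replicate 2 they were -0.030 and 0.048. Of the 8 measured cohesin regulators (13 listed) none were called, and 0 of 8 had an unadjusted limma p under 0.05. Those with the smallest p were Pds5a, which binds the ring, at 0.33 ± 0.16 (adjusted p = 0.380) and Mau2, a partner of the loader Nipbl, at -0.57 ± 0.29 (0.388), which was -0.06 without empty-vector replicate 1 and -1.09 without replicate 2 (adjusted p = 0.00477, range 0.00477 to 0.867).

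**Figure D2:**
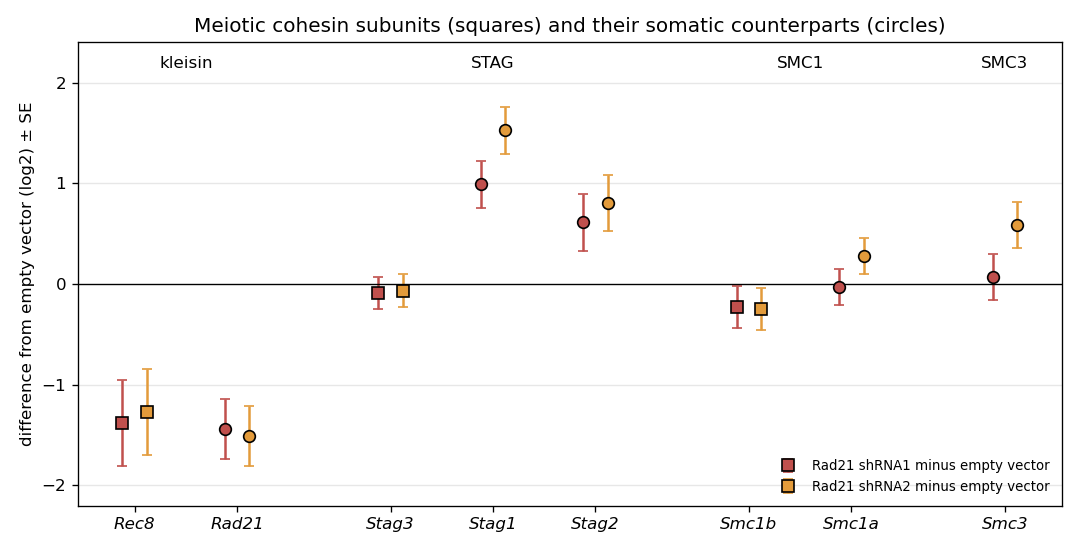
Difference from empty vector (log2, ± SE, n = 2 and 2) for the meiotic subunits (squares) and their counterparts in body cells (circles), with shRNA1 left of shRNA2 for each gene along the horizontal axis. Rec8 and Rad21 both lie below 0, Stag1 lies above 0 while Stag3 is near it, and Smc1b and Smc1a lie between -0.25 and 0.27.

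Of 81 genes listed for meiosis and germ cells, without the 4 above, 51 were measured, and 1 of them, Psmc3ip, was called for both shRNAs. That is 1.96% of the list, near the 2.13% of all genes. The median difference of the 51 was -0.03, against -0.02 over all genes. Arrays without overlap were found for 4 of them upwards and 7 downwards, or 7.84% and 13.7%, against 11.5% and 13.6% of all genes.

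Among 7 measured genes of the meiotic chromosome axis and synapsis (18 listed), none were called and 0 had an unadjusted limma p under 0.05. These include Sycp1 and Sycp3 of the synaptonemal complex, at -0.05 and -0.21 (adjusted p = 0.908 and 0.847), both chosen after their values were seen, and without empty-vector replicate 1 the Sycp3 difference was 0.23. Trip13, an ATPase that remodels the axis proteins and also works in mitosis, differed by 0.80 ± 0.51 (limma adjusted p = 0.50), with readings of 9.19, 8.25, 9.60 and 9.38 on the shRNA arrays, against 9.15 and 7.46 with empty vector. Its difference was 1.65 without empty-vector replicate 1 and -0.05 without replicate 2. Hormad1, an axis protein, differed by -0.19 ± 0.13 (limma adjusted p = 0.530), or -0.26 without empty-vector replicate 1 and -0.11 without replicate 2.

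Among 11 measured meiotic recombination genes (19 listed), 5 had positive and 6 negative differences, and 1, Psmc3ip, was called. An unadjusted limma p under 0.05 was found for 2 of the 11, against 16.7% of all genes. The second, Mlh3, differed by -0.49 ± 0.19 (limma adjusted p = 0.286), with a gap of 0.003 between the groups. Mlh3 was chosen after its values were seen. Psmc3ip, or Hop2, which acts in the pairing of DNA strands in meiosis, rose by 1.10 ± 0.16 (2.14-fold, limma adjusted p = 0.0365). It read 6.46 and 6.08 with shRNA1 and 7.03 and 7.17 with shRNA2, against 5.61 and 5.57 with empty vector. Every shRNA array lay above both empty-vector arrays, and the shRNA2 arrays lay above the shRNA1 arrays. Leaving out any 1 shRNA array ended the call, with an adjusted p between 0.0779 and 0.173 (range over all alternatives 0.0134 to 0.173). The mitosis list moved in the same direction: 11 of 11 measured genes (12 listed) had positive differences, 4 of them called, with a median of 1.23 and mean levels of 8.62 to 9.41 with the shRNAs, against 8.30 and 7.47. Its part in the Psmc3ip level was not tested. Mnd1, the partner protein of Hop2, differed by 0.46 (adjusted p = 0.420), or 0.69 without empty-vector replicate 1 and 0.24 without replicate 2. Dmc1 differed by -0.30 (adjusted p = 0.335), and both genes were chosen after their values were seen.

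The germ cell list was the largest, with 33 measured genes of 44, and none were called by limma, while 4 of 33 had an unadjusted p under 0.05, against 16.7% of all genes. Their median difference was -0.03, and 31 of the 33 lay within 0.5 of 0. Tdrd7, a tudor-domain protein of germ cell granules that also acts outside the germline, had the smallest p at -0.53 ± 0.14 (adjusted p = 0.132, 0.0576 to 0.473 over the alternatives). It read 8.68 and 8.80 with shRNA1 and 8.19 and 8.18 with shRNA2, against 8.88 and 9.11 with empty vector. Brdt, a bromodomain protein of the testis, differed by -0.62 ± 0.20 (adjusted p = 0.213) on readings of 4.15 to 4.76 with the shRNAs, against 5.03 and 5.23 with empty vector. Dazl, an RNA-binding protein of early germ cells, differed by 0.21, and Piwil2, which acts in the piRNA pathway with Ddx4, by -0.15, both chosen after their values were seen.

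**Figure D3:**
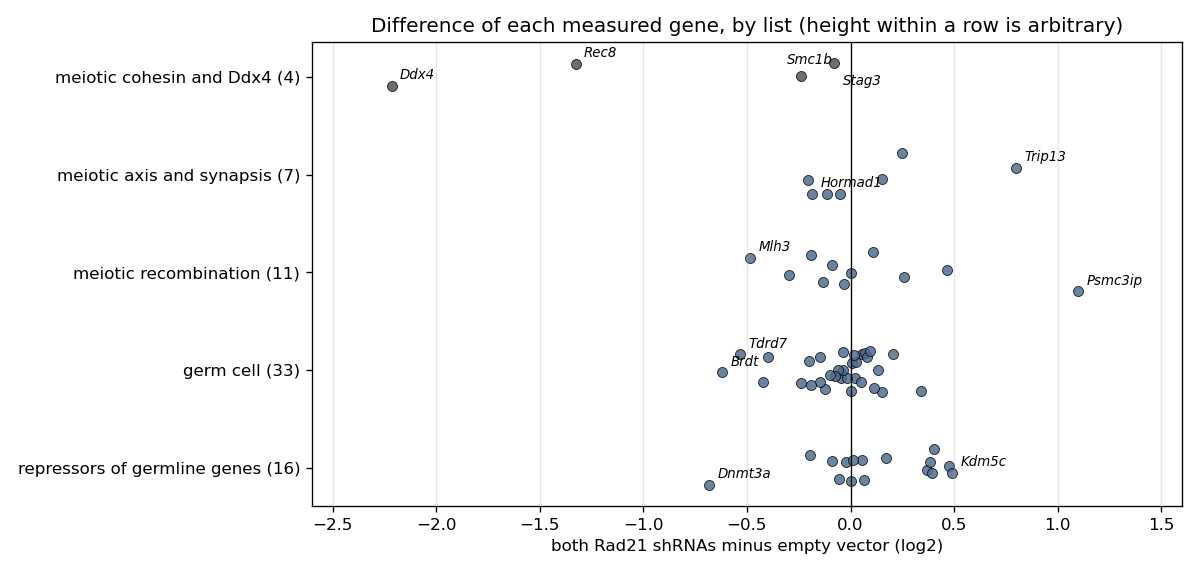
Difference of both shRNAs minus empty vector (log2, horizontal axis) for each measured gene, 1 point a gene, in rows by list with the number measured. Ddx4 at -2.21 and Rec8 at -1.33 lie below every gene of the meiosis, germ cell and repressor lists, whose lowest value is -0.68. Psmc3ip at 1.10 is the highest gene of these lists. Ddx4 and Rec8 were chosen with their values known, so nothing is read from their place. Without empty-vector replicate 1, Rec8 was at -0.78 and Dnmt3a, of the repressors, at -0.93.

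For the single hairpins, of the 51 genes, 0 were called with shRNA1 and 1 with shRNA2, again Psmc3ip, and 0 for shRNA1 minus shRNA2, by limma. Unadjusted p-values under 0.05 were found for 2 of the 51 with shRNA1, 5 with shRNA2 and 2 for shRNA1 minus shRNA2, against 9.30%, 17.8% and 4.89% of all genes.

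Of 16 known repressors of germline genes that were measured (19 listed), none were called by limma, and 1 of 16 had an unadjusted p under 0.05. Their median difference was 0.06, and 15 of 16 lay within 0.5 of 0. By hairpin the median was -0.04 with shRNA1 (15 of 16 within 0.5) and 0.24 with shRNA2 (9 of 16). Dnmt3a, a DNA methyltransferase, differed by -0.68 ± 0.21 (adjusted p = 0.199). It read 7.72 and 8.18 with shRNA1 and 7.81 and 7.97 with shRNA2, against 8.35 and 8.86 with empty vector, without overlap. Without empty-vector replicate 1 it was -0.93, and without replicate 2 it was -0.43. With the mean of its probe sets the Dnmt3a difference was -0.88 and passed the threshold (adjusted p = 0.0439, range 0.0439 to 0.547). Kdm5c, a histone H3K4 demethylase, differed by 0.49 ± 0.23 (adjusted p = 0.359), or 0.24 without empty-vector replicate 1 and 0.74 without replicate 2. E2f6 and Pcgf6 of the variant Polycomb complex differed by 0.41 and 0.47 (adjusted p = 0.468 and 0.435), with empty-vector replicate 1 the lowest array for each. Without that array the differences were 0.0056 and 0.020. Both genes were chosen after their values were seen.

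Markers of other cell types moved with the groups in which Ddx4 was lower. Over the 8 measured mast cell and basophil markers (8 listed), all 8 had negative differences and 3 were called, and their mean level was 10.30 to 10.84 on the shRNA arrays, against at least 11.30 on both empty-vector arrays. Over 5 of 6 megakaryocyte markers the mean was 9.48 to 10.46, against 11.05 and 10.89, with 1 called. The 10 neutrophil markers went the other way, with 4 called, at means of 12.07 to 12.67 with the shRNAs, against 10.28 and 9.46. Monocyte and macrophage markers, all 8 measured, split, with 1 called higher and 2 lower. B cell (4 of 5), T and NK cell (5 of 6) and stromal and endothelial (6 of 6) markers had no call by limma, with 0, 0 and 1 at an unadjusted p under 0.05. The part of these cell types in the Ddx4 and Rec8 levels was not tested.

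The genes whose readings followed each of the 4 most closely over the 6 arrays are given as a description, by Pearson's r among the 3063 or 3064 other genes that span at least 1 log2 unit. These points share the arrays, and 6 arrays with 1 large step between groups give high values of r to many genes. Ddx4 was followed by Gask1b (0.996), Ccnd1 (0.993), encoding cyclin D1, and Mab21l1 (0.992), and 62 genes exceeded 0.95. Ccnd1 read 6.24 and 6.65 with shRNA1 and 6.31 and 6.13 with shRNA2, against 8.30 and 8.27 with empty vector, so it shared the gap between the groups. Rec8 was followed by Foxo3 (0.993), a transcription factor of stress and quiescence, Tnk2 (0.993), a tyrosine kinase, and Kat2b (0.987), a histone acetyltransferase, with 70 genes over 0.95. Foxo3 read 9.25 and 9.75 with shRNA1 and 9.25 and 9.68 with shRNA2, against 10.98 and 10.01, with the same high first control array as Rec8. Smc1b was closest to Gtf3c4 (0.993), Ccnj (0.977) and Runx1 (0.972), and Stag3 to Dapp1 (0.891), Fam174b (0.889) and Armcx1 (0.869), with no gene over 0.95 for Stag3. Among themselves the 4 genes had r between 0.41 (Stag3 and Ddx4) and 0.88 (Stag3 and Smc1b), and Ddx4 and Rec8 had 0.78.

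**Figure D4:**
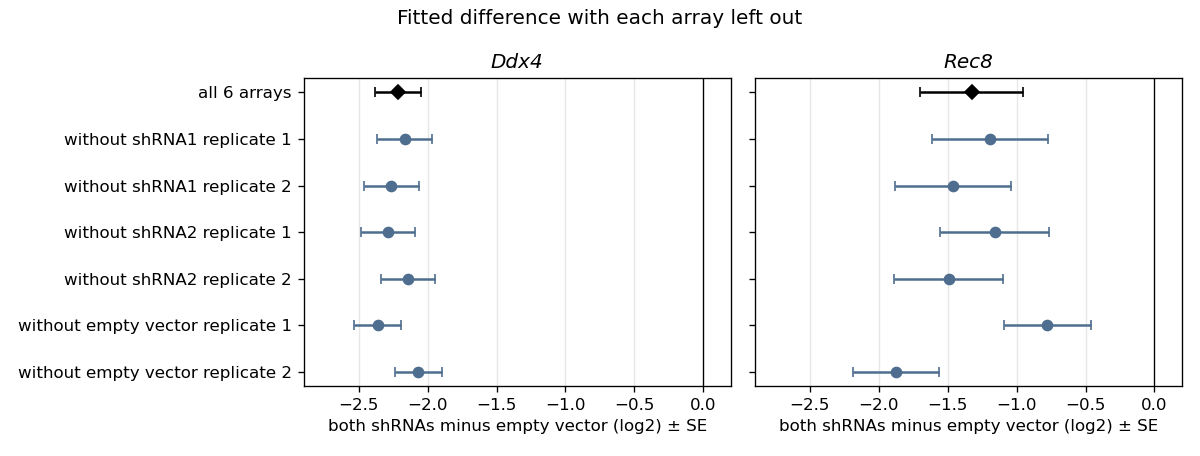
Difference of both shRNAs minus empty vector (log2, horizontal axis, ± SE) for Ddx4 and Rec8 with all 6 arrays (diamond) and with each array left out (circles, rows). Ddx4 lies between -2.36 and -2.07, while Rec8 lies at -0.78 without empty-vector replicate 1 and at -1.88 without replicate 2.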

How the data were processed

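The authors deposited RMA intensities on a linear scale for 22690 probe sets on each of 6 arrays, per the submitters' processing notes, which name RMA (background correction, quantile normalization and summary of probes) and give no version. RMA compresses dim signals. Values were taken to log2. Probe sets with 1 gene in the platform annotation numbered 20393, with several 691 and with none 1606, and 20380 were used after control probe sets were left out. The brightest probe set over the 6 arrays stood for each of 12393 genes. A single limma 3.58.1 fit (R 4.3.3) of the 3 groups had 3 residual degrees of freedom, with Benjamini-Hochberg adjustment over all genes and a threshold of 0.05, and was tested on simulated data. Contrasts were both shRNAs, shRNA1 and shRNA2 minus empty vector, and shRNA1 minus shRNA2. Other genes were named by rule: the cohesin ring always, from each further list up to 4 called genes by size or otherwise the 2 with the smallest p, and the 3 genes most like each of the 4. The 4 genes and all lists were chosen with earlier results of these data known. Promoters are RefSeq's (GRCm38.p6), found for 4 of 4 genes. Alternatives covered dim genes, probe sets, normalization, variance model, replicate block and each array left out. The number of arrays limits the precision.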

Additional observations from a re-analysis of the deposited data

How the results depend on the processing

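The differences of the 4 genes moved by less than 1 SD between replicates in every alternative that could be run. For Rec8 that SD was 0.57, widened by the gap of 1.10 between its empty-vector arrays. Staying within it therefore does not show that the size of the Rec8 difference is stable. With 1 array left out they ranged from -2.36 to -2.07 for Ddx4, -1.88 to -0.78 for Rec8, -0.34 to -0.15 for Smc1b and -0.14 to -0.01 for Stag3. Ddx4 and Stag3 could not be fitted with the dimmest 25% of genes left out, and none of the 4 with the dimmer 50% left out. Leaving out the dimmer 50% gave 0 called meiosis and germ cell genes for both shRNAs and for shRNA2, with 4 of the 51 genes left. It also gave 0 called cohesin genes, with all 13 still measured and Stag1 at an unchanged difference and an adjusted p of 0.0591. Over all genes 113 were then called, against 264. The mean of all probe sets gave 0 called cohesin genes and 1 repressor, Dnmt3a. With 1 array left out, called meiosis and germ cell genes ranged from 0 to 5 for both shRNAs, 0 to 2 for shRNA1, 0 to 5 for shRNA2 and 0 to 0 for shRNA1 minus shRNA2, cohesin genes from 0 to 6 and repressors from 0 to 4. The highest counts came without empty-vector replicate 2, when 3121 of all genes were called, against 649 without empty-vector replicate 1 and 3 to 93 without an shRNA array, and the cause was not tested. In these fits the lone array is assumed to vary like the other groups. Without empty-vector replicate 2, Smc1a reversed to -0.030 and Trip13 to -0.049, and over all arrays left out they ranged from -0.030 to 0.27 and from -0.049 to 1.65. The shared replicate numbers are only 2 and were not taken as pairs: deviations by number correlated at 0.20 and 0.15 between empty vector and each shRNA, and 0.58 between the shRNAs. With a replicate block, Ddx4 stayed at -2.21 and Rec8 at -1.33, the meiosis and germ cell count for both shRNAs stayed at 1, Rad21 had a limma adjusted p of 0.0166 and Stag1 one of 0.0565.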

Other observations

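The E2F-type core TCCCGC was unevenly spread over the promoters of the meiosis and germ cell genes measured. It stood in 8 of 10 promoters of axis and synapsis genes and in 7 of 10 of recombination genes, but in 2 of 32 of germ cell genes, against 30.2% of the promoters of all genes measured. The E-box CACGTG stood in 6, 0 and 9 of the same promoters, against 9.11%. Some genes have several promoters in the table, so these counts are not of independent genes, and no difference between the lists was tested.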
